A study of Mus musculus with 3 samples.

Results

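Innate lymphoid cell (ILC) progenitors from mouse bone marrow were set against lymphoid progenitors at an earlier stage, with cells in division taken out of both libraries. The cells were selected on their own UMI counts of division and lineage genes, so the levels of those genes are part of the choice. A total of 1532 of the 3362 cells deposited for the series entered the comparison, 309 of them from the library labelled ALP and 1223 from the library labelled ILCpro_WT. A cell was kept when it had at least 500 genes and at most 10% of its unique molecular identifiers (UMIs, each a captured mRNA molecule) from mitochondrial genes. It also had to have 0 UMIs of the division genes Mki67, Top2a, Ube2c and Cenpf, at most 1 UMI of Cd79a and Cd79b, fewer than 5 of Lyz2, S100a8 and S100a9, and fewer than 3 of Cd74, H2-Aa, H2-Ab1 and H2-Eb1. Of the cells with enough genes, 58.8% in ALP and 30.2% in ILCpro_WT failed the division criterion, so it removed a larger part of the ALP library. Cells just outside it, with exactly 1 UMI of the division genes, numbered 99 in ALP and 198 in ILCpro_WT.

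Both libraries came from C57BL/6 mice carrying a Tcf7 EGFP reporter on 1 allele (Tcf7EGFP/+), so the cells labelled WT were also heterozygous for the reporter. The ALP (common lymphoid progenitors) were sorted as lineage-negative, Kit+, 2B4+, α4β7-, Flt3 high and IL-7Rα+. The ILCpro_WT cells were sorted as lineage-negative, Kit+, 2B4+, α4β7+ and positive for the Tcf7 reporter, a gate that takes in early ILC progenitors and ILC precursors. The remaining library, ILCpro_KO (Tcf7EGFPnull/-, same gate, 276 cells after the same filters), is given beside the others as levels only. The number of animals in each library, their age and any pooling are not given in the sources used here.

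The kept cells held 1093346 UMIs in ALP and 3445063 in ILCpro_WT, with medians of 3414 and 2531 UMIs and 1465 and 1085 genes per cell. Levels are UMIs per 1000000 of the library's kept UMIs (CPM), with exact 95% Poisson intervals in parentheses. Each group was 1 library, so no difference has a replicate check and no p-value can be given, and all intervals cover counting error only. A gene with 0 UMIs in a library was set to a floor of 3 UMIs, 2.74 CPM in ALP and 0.871 CPM in ILCpro_WT, and "at least" gives a fold against that floor. A gene counted as higher or lower when it differed at least 2-fold on the scale log2(CPM + 10), among 9700 genes at 5 CPM or more in either library. On that rule 2.7% of genes were higher in ILCpro_WT and 3.95% were lower, 6.65% in all, and the median log2 difference over all genes was -0.08. The median mitochondrial share of a cell's UMIs was 1.18% in ALP and 0.776% in ILCpro_WT. Scaling by the median ratio in place of the library total moved the log2 differences by at most 0.064.

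The sorted and stage-defining genes went with the labels. Tcf7, the transcription factor the reporter reads, was at 2.74 CPM in ALP and 458 CPM in ILCpro_WT. The ILC lineage factors Zbtb16 (0.915 and 368 CPM), Gata3 (42.1 and 416 CPM) and Rora (1.83 and 630.5 CPM) were higher in ILCpro_WT. Flt3 (358 and 13.1 CPM), Dntt (1872 and 25.5 CPM) and Rag1 (11.9 and 0.581 CPM), genes of early lymphoid progenitors, were lower. Both chains of the α4β7 integrin used in the gate were higher in ILCpro_WT, Itga4 at 203 and 486 CPM and Itgb7 at 22.0 and 111 CPM, whereas Cd244, which encodes 2B4, was at 54.9 and 49.1 CPM. Markers of other cell types differed too. Plasmacytoid dendritic cell markers summed to 1951 CPM in ALP and 440 CPM in ILCpro_WT. The defining marker Siglech was at 35.7 and 0.290 CPM, with a UMI in 29 of 309 ALP and 1 of 1223 ILCpro_WT cells. In both libraries Cd209d and Klk1 were at 0. Markers of dendritic cells and MHC class II summed to 996 and 459 CPM, and B cell markers to 120 and 32.2 CPM. Neutrophil and monocyte markers summed to 347 and 195 CPM, mast cell and basophil markers to 5.49 and 144 CPM, and natural killer cell markers to 144 and 413 CPM. In ILCpro_WT, Cpa3 made up 110 CPM of the mast cell and basophil sum, and Fcer1a, Cma1 and Tpsb2 had 0 UMIs. The natural killer markers Prf1 and Klra8 also had 0 UMIs there, and Gzma had 5. The dendritic cell, B cell and neutrophil sums held members at 0 too. The part these markers play in the differences was not tested, apart from a repeat without every cell holding a Siglech UMI, in which no count of genes moved by more than 1.5 times.

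As background, a common lymphoid progenitor can still give rise to B, T, dendritic and innate lymphoid cells, and reads its surroundings through receptors such as Flt3 and IL-7Rα. Commitment to ILCs needs the transcription factor TCF-1, encoded by Tcf7, and proceeds through cells that turn on Gata3 and PLZF (encoded by Zbtb16). Genes in signalling, adhesion, metabolism and chromatin, most of them outside these lineage factors, are described here by function.

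Among single genes at 50 CPM or more, with cell type markers left out, signalling, calcium-binding and survival genes were among the highest in ILCpro_WT. S100a4, a calcium-binding protein linked to cell movement, was at 6.40 CPM (2.57 to 13.2) in ALP and 195 CPM (181 to 211) in ILCpro_WT, 30.5-fold higher (14.7 to 76.2), and at 168 CPM in ILCpro_KO. The cells removed for lineage UMIs carried it more often: with cells thinned to 1000 UMIs, S100a4 was seen in 26.3% of 95 removed and 16.6% of 1220 kept ILCpro_WT cells, and the part of such cells was not tested. For Ccr2 these shares were 12.6% and 7.87%, and for S100a6, given further on, 18.9% and 9.34%. Txk (chr5:72695978-72752777), a kinase of the Tec family that acts below antigen receptors, had 1 UMI in ALP (0.915 CPM) and stood at 102 CPM in ILCpro_WT, 112-fold higher with a wide interval of 19.98 to 4437. Its level in ILCpro_KO was 7.34 CPM, between the others. Cacna1e (chr1:154390731-154884501), a voltage-gated calcium channel subunit, had 0 UMIs in ALP, 89.1 CPM in ILCpro_WT (at least 32.5-fold higher) and 3.26 CPM in ILCpro_KO. Ccr2, a chemokine receptor, also had 0 UMIs in ALP and 89.1 CPM in ILCpro_WT, but it was at 54.6 CPM in ILCpro_KO. Bcl2 (chr1:106538178-106714274), the survival factor, was abundant on both sides: 259 CPM (229.6 to 291) in ALP cells, 1514 CPM (1473 to 1556) in ILCpro_WT cells and 1559 CPM in ILCpro_KO cells.

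Other high genes are best known from other tissues. Tnni1, a troponin subunit of slow muscle, was at 20.1 and 240.1 CPM in ALP and ILCpro_WT, whereas its relative Tnni2 was at 27.4 and 5.22 CPM. Ckb, the brain creatine kinase, was at 1.83 and 81.0 CPM, and Nrgn, a calmodulin-binding protein of neurons, at 107 and 548 CPM. Pgam2, the muscle form of phosphoglycerate mutase, had 0 UMIs in ALP and 57.5 CPM in ILCpro_WT, at least 20.9-fold higher, while the widely used form Pgam1 was at 133 and 136 CPM. Gse1, a partner of the CoREST histone deacetylase complex, was at 11.9 and 161 CPM.

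The lower genes were led by Egfl7 (chr2:26580014-26593120), a secreted factor known from blood vessels, at 412 CPM (374 to 451) in ALP and 19.7 CPM (15.3 to 25.02) in ILCpro_WT, 20.9-fold lower (16.1 to 27.3). Myl10, a myosin light chain, was at 699 and 41.5 CPM, and its relative Myl4 at 26.5 and 3.77 CPM. Il12a, the p35 chain shared by the cytokines IL-12 and IL-35, was at 399.7 and 27.6 CPM, with 0 UMIs of its IL-12 partner Il12b in all 3 libraries. Its IL-35 partner Ebi3 was at 11.9 CPM in ALP, 2.90 CPM in ILCpro_WT and 12.2 CPM in ILCpro_KO. Xrcc6, the Ku70 subunit of the DNA end-joining machinery, was 10.3-fold lower (7.94 to 13.4), at 235 and 22.9 CPM, whereas its partner Xrcc5 (Ku80) was at 8.23 and 19.2 CPM. In ILCpro_KO these genes were nearer to ILCpro_WT than to ALP: 26.1 CPM for Egfl7, 48.9 CPM for Myl10, 67.7 CPM for Il12a and 55.5 CPM for Xrcc6. The transcription factors Runx2 (164 and 20.9 CPM), Hoxa9 (123 and 13.9 CPM) and Zeb2 (206 and 48.2 CPM), chosen after their values were seen, were lower too, whereas Maf (3.66 and 118 CPM), among the 20 highest genes, and its relative Mafg (14.6 and 49.1 CPM) were higher. Over the 20 highest and 20 lowest genes, no single cell held more than 5.61% of a gene's UMIs in the library where it was higher, and each gene was seen there in at least 51 cells.

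**Figure D1:**
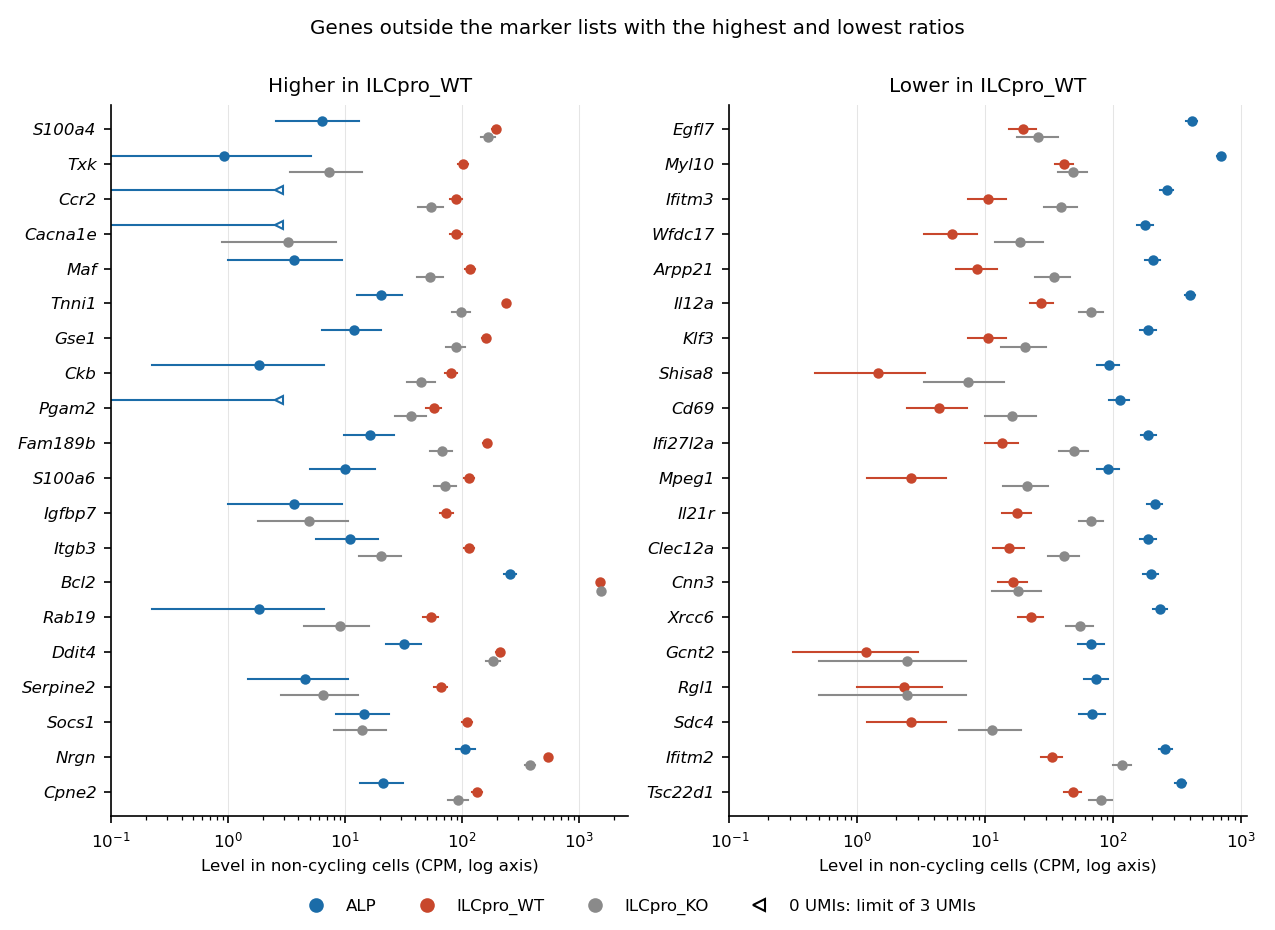
CPM on a log axis of the 20 genes with the highest and the 20 with the lowest log2 difference, in non-cycling ALP, ILCpro_WT and ILCpro_KO cells, with exact 95% Poisson bars; an open triangle is the limit of 3 UMIs for a gene with 0 UMIs. The genes run from S100a4 (6.40 and 195 CPM in ALP and ILCpro_WT) to Egfl7 (412 and 19.7 CPM). They were chosen for the size of this difference, so the gap between their bars follows from the choice, and the bars cover counting error only. ILCpro_KO lies near ILCpro_WT for Bcl2 and Egfl7 (1559 and 26.1 CPM) and between both for Txk (7.34 CPM).

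Some of these genes carry a microRNA in their body. Hairpins on a gene's own strand were found among both the higher and the lower genes. How often all tested genes hold one was not counted, so no share is given. The microRNAs were not measured, since the assay captures polyadenylated RNA ends. The mature sequences of 4 microRNAs known from blood cells or lymphoid cells are shown, chosen with their hosts' values known and not for the size of the difference. The seed (bases 2 to 8, in capitals) decides which mRNAs a microRNA pairs with. The sequences come from RefSeq, build GRCm38.p6.
Egfl7 host, miR-126a-3p at chr2:26591402-26591423: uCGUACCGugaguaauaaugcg
Arpp21 host, miR-128-3p at chr9:112118644-112118664: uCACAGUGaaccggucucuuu
Evl host, miR-342-3p at chr12:108658680-108658702: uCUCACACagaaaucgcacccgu
Mir142hg host, miR-142a-3p at chr11:87756903-87756925: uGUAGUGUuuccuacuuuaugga
No seed is shared among these sequences. Egfl7, host of the endothelial and progenitor microRNA miR-126a, is described above. Arpp21, an RNA-binding protein that hosts miR-128, was at 204 CPM in ALP and 8.71 CPM in ILCpro_WT, 23.4-fold lower (16.0 to 35.5). Evl, an actin regulator that hosts miR-342, was at 148 and 34.3 CPM. Mir142hg, the primary transcript of the blood-cell microRNA miR-142a, went the other way, at 9.15 CPM in ALP, 59.5 CPM in ILCpro_WT and 70.1 CPM in ILCpro_KO.

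A larger share of signalling and adhesion genes than of all genes tested was past 2-fold, in both directions. Of 448 signalling genes tested, 43 (9.60%) were higher and 49 (10.9%) lower, with a median log2 difference of -0.08. Of 169 adhesion genes, 14 (8.28%) were higher and 27 (16.0%) lower, with a median of -0.03. Metabolic genes (393 tested) had 8 higher (2.04%) and 14 lower (3.56%), near the share over all genes. Chromatin genes (275 tested) had 3 higher (1.09%) and 7 lower (2.55%), below that share. The genes tested include cell type markers and gate genes: 14 in signalling, 6 in adhesion, 4 in metabolism and 1 in chromatin. Flt3, Kit, Il2rb, Cxcr6, Fgf3, Arg1 and Satb1 are among those past 2-fold. These lists were put together with earlier results of the same data known, so their counts describe these 2 libraries and are not tests. The count of each list below stands beside 2.7% higher and 3.95% lower over all genes tested. A list with few members past 2-fold is not set apart from all genes by its count.

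**Figure D2:**
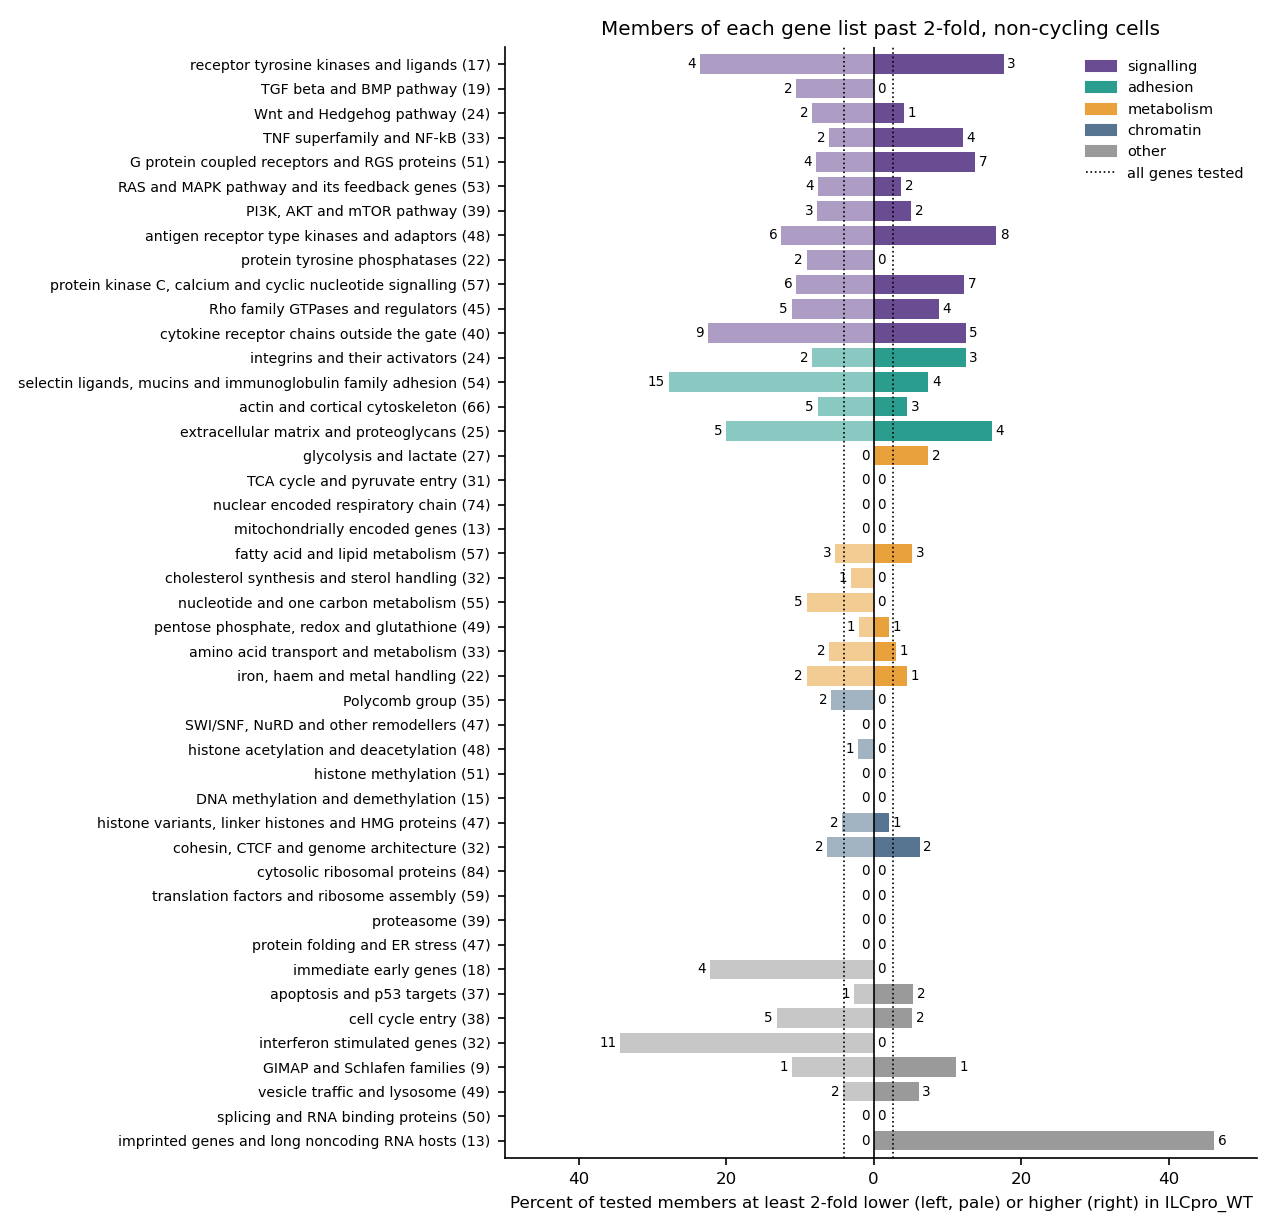
Percent of tested members of each of 45 gene lists that were at least 2-fold lower (left, pale) or higher (right) in non-cycling ILCpro_WT than in ALP cells, with counts as numbers and dotted lines at the share over all genes tested (3.95% and 2.7%). The longest bars are those of imprinted and long noncoding RNAs (6 of 13 higher) and interferon-stimulated genes (11 of 32 lower), several signalling and adhesion lists also pass the dotted lines, and the lists for ribosomal proteins, the respiratory chain and splicing have none.

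Kinases and adaptors that act below antigen receptors made up 1 of the 3 signalling lists with the most higher members. Of 48 tested, 8 were higher and 6 lower, with a median log2 difference of 0.14. Among the higher members were Txk (a Tec-family kinase), Dapp1, Dok2, Skap1 and Sla2 (adaptors), and Fcer1g and Tyrobp (signalling chains with an activation motif). Dapp1 was at 61.3 CPM in ALP and 213 CPM in ILCpro_WT, 3.47-fold higher (2.70 to 4.53), and Fcer1g at 146 and 521 CPM. Within the Tec family the kinases parted: Txk was higher by the factor given above, and Tec, the neighbour of Txk on chromosome 5, was at 27.4 and 32.8 CPM, a ratio of 1.20 (0.793 to 1.85). Btk, the family's B-cell kinase, was at 41.2 and 16.5 CPM. The lower members were Blnk, Pag1, Sh3bp5, Skap2, Stap1 and Vav3. Stap1, an adaptor of B-lineage cells, was at 50.3 CPM in ALP and 6.97 CPM in ILCpro_WT, while Lck, the Src-family kinase of T cells, was at 104 and 151 CPM, a smaller difference.

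Calcium and protein kinase C genes had 7 higher and 6 lower members of 57 (median 0.06). The higher members included the channel gene Cacna1e, Itpr2 (25.6 and 92.0 CPM), an IP3 receptor that releases calcium from the endoplasmic reticulum, and Stim1 (7.32 and 28.7 CPM), which senses the emptied store, together with the calcium-dependent kinase Camk4 and 3 S100 proteins. S100a10 was at 201 CPM in ALP and 541 CPM in ILCpro_WT, and S100a6 at 10.1 and 116 CPM, the latter with a smaller log2 difference among dividing cells (0.84). S100a13, a neighbour in the same gene cluster, was at 122 and 124 CPM. The lower members were Ppp3ca (159 and 73.4 CPM), a catalytic subunit of calcineurin, Nfatc2, the factor that calcineurin activates, Camk1d (68.6 and 11.9 CPM), the phosphodiesterase Pde4b, and the kinases Prkcd (62.2 and 19.2 CPM) and Prkce.

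In the cytokine receptor list, 5 of 40 receptor and pathway genes were higher and 9 lower, with a median of -0.32. The lower genes were the type I interferon receptor chain Ifnar2 (125 and 30.2 CPM), the interferon-gamma receptor chain Ifngr2, Il10rb (107 and 12.5 CPM), Il17ra (305 and 70.2 CPM), Il18rap, Il21r (211 and 17.7 CPM), Il4ra, Il6st and Socs2. Il6st encodes gp130, the signal chain of the IL-6 family, and was at 70.4 CPM (55.6 to 88.0) in ALP and 3.77 CPM (2.01 to 6.45) in ILCpro_WT. The higher genes were the receptor chains Il12rb1, Il17rb, Il18r1 and Il2rb, and the feedback inhibitor Socs1. Il2rb, shared by the IL-2 and IL-15 receptors, had 0 UMIs in ALP and stood at 26.1 CPM in ILCpro_WT and 30.2 CPM in ILCpro_KO. Socs1 was at 14.6 CPM in ALP, 110.3 CPM in ILCpro_WT and 13.9 CPM in ILCpro_KO. Il2rg, a further chain of the IL-2 and IL-15 receptors, missed the 2-fold threshold at 58.5 and 125 CPM (log2 difference 0.98), and Il7r was at 206 and 131 CPM.

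G protein-coupled receptors, RGS proteins and related receptors, as 1 list, had 7 higher and 4 lower members of 51 (median -0.18). Higher were the chemokine receptors Ccr2, Cxcr5 and Cxcr6, the oxysterol receptor Gpr183, the lysophospholipid receptor Lpar6 (24.7 and 109 CPM), the ATP-gated channel P2rx7 and the regulator Rgs3. Cxcr5 had 0 UMIs in ALP and stood at 28.2 CPM in ILCpro_WT. Rgs10, which shortens G-protein signals, and the orphan receptor Gpr171 were lower in ILCpro_WT (104 and 18.0 CPM; 204 and 74.3 CPM) but near the ALP level in ILCpro_KO, at 99.5 and 223 CPM. Adgrl4 and Gpr132 were the other lower members.

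In the TNF and NF-κB list, 4 of 33 genes were higher and 2 lower. Ltb, which encodes lymphotoxin beta and is used by ILCs to organise lymphoid tissue, was at 39.3 CPM (28.5 to 52.98) in ALP and 223 CPM (208 to 239.6) in ILCpro_WT, and at 63.6 CPM in ILCpro_KO. Nfkb1, a subunit of NF-κB, was at 91.5, 260.1 and 442 CPM in the same order, so that ILCpro_KO was highest. The growth factor and receptor kinase list had 3 higher (Fgf3, Igfbp7, Kit) and 4 lower (Csf1r, Fgf13, Flt3, Vegfa) of 17. Between receptor and RAS, the adaptor Grb2 was at 87.8 and 279.5 CPM, while the feedback phosphatases Dusp2 and Dusp6 were lower, Dusp6 at 31.1 and 4.06 CPM. That list had 2 higher and 4 lower of 53, beside 2.7% higher and 3.95% lower over all genes tested. Wnt genes had 1 higher (Tle3) and 2 lower (Tcf7l2 and Tle1) of 24. Tcf7l2, a relative of Tcf7, was at 54.0 CPM in ALP and 3.77 CPM in ILCpro_WT. TGF-β genes had 0 higher and 2 lower (Smad7 and Tgif2) of 19. The PI3K and mTOR list had 2 higher (Ddit4 and Sgk1) and 3 lower (Eif4ebp1, Plcg1 and Tsc22d3) of 39, and the phosphatase list 0 higher and 2 lower (Ptp4a3 and Ssh2) of 22. Ddit4, an inhibitor of mTOR, was at 32.0 and 211 CPM, and Tsc22d3, a glucocorticoid-induced gene, at 98.8 and 21.8 CPM. Small GTPase genes had 4 higher and 5 lower of 45, with the Rac activator Tiam1 at 8.23 and 68.8 CPM and Rhob at 69.5 and 9.58 CPM.

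Of 54 selectin, mucin, tetraspanin and immunoglobulin-family genes, 4 were higher and 15 lower, with a median of -0.33. The lower group held Cd34 (365 and 54.9 CPM) and Cd93 (201 and 34.3 CPM), both known from early progenitors, the tetraspanins Cd53 (413 and 116 CPM), Cd81 and Tspan13 (306 and 52.2 CPM), and the hyaluronan receptor Cd44 (132 and 39.2 CPM). Cd47, a signal that keeps phagocytes from engulfing a cell, was the most abundant of them at 1117 CPM (1055 to 1181) and 535 CPM (511 to 560.0). The higher members were Anxa2, Cd63, Fut7 and Lgals3. Fut7, the enzyme that completes selectin ligands, was at 42.1 and 108 CPM.

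Integrins outside the gate and their activators, as 1 list, had 3 higher and 2 lower members of 24. The lower members, Cyth4 and Lims1, are not integrins themselves. Itgb3 (chr11:104608000-104670476), the β3 chain, was at 10.98 CPM (5.67 to 19.2) in ALP cells, 116 CPM (104 to 127) in ILCpro_WT cells and 20.4 CPM in ILCpro_KO cells, and its platelet partner Itga2b had 0 UMIs in ALP and 20.03 CPM in ILCpro_WT. Itgal, the α chain of LFA-1, was at 20.1 and 63.6 CPM. The general β1 chain Itgb1 was at 53.05 and 67.3 CPM. Among 25 matrix and guidance genes 4 were higher (Adam8, Nrp2, Sema4a, Serpine2) and 5 lower (Adam15, Ctss, Sdc1, Sdc4, Serpinb1a). The heparan sulfate proteoglycans Sdc1 (107 and 11.3 CPM) and Sdc4 (68.6 and 2.61 CPM) were both lower. Nrp2, a semaphorin co-receptor, had 0 UMIs in ALP and stood at 36.6 CPM in ILCpro_WT.

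Actin genes had 3 higher and 5 lower of 66 (median 0.06), beside 2.7% higher and 3.95% lower over all genes tested. Tmsb4x (chrX:167207093-167209315), the thymosin that holds free actin, was at 1484 CPM (1413 to 1558) in ALP cells, 5983 CPM (5901 to 6065) in ILCpro_WT cells and 4359 CPM in ILCpro_KO cells, whereas its relative Tmsb10 was at 3218, 1994 and 2537 CPM. The non-muscle myosin Myh9 and the septin Sept11 were the other higher genes. The lower genes were the filament-end proteins Capg, Capza2 (337 and 148 CPM) and Evl, the membrane linker Marcks, and the tropomyosin Tpm4 (192 and 53.7 CPM). Actb itself was at 4119 and 5241 CPM.

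None of 74 nuclear genes of the respiratory chain and none of 31 genes of the TCA cycle was past 2-fold in either direction, with respiratory log2 differences from -0.56 (Ndufs1) to 0.90 (Uqcrq). All 13 genes encoded by mitochondrial DNA also stayed within 2-fold, but their median was -0.36 and their summed share of UMIs was 1.30% in ALP and 0.793% in ILCpro_WT. Of these, mt-Co3, a subunit of cytochrome oxidase, was at 3537 CPM in ALP and 1873 CPM in ILCpro_WT. Of 27 glycolysis genes, 2 were higher and 0 lower. Hk2, a hexokinase at the pathway's entry, was at 19.2 and 50.2 CPM, and Bpgm, which makes 2,3-bisphosphoglycerate, at 10.1 and 40.1 CPM. The differences of Hk2 and Bpgm were smaller in dividing cells (log2 0.20 and 0.30). The abundant enzymes Gapdh (510.4 and 379.7 CPM) and Ldha (312 and 353 CPM) differed by less than 1.5-fold.

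**Figure D3:**
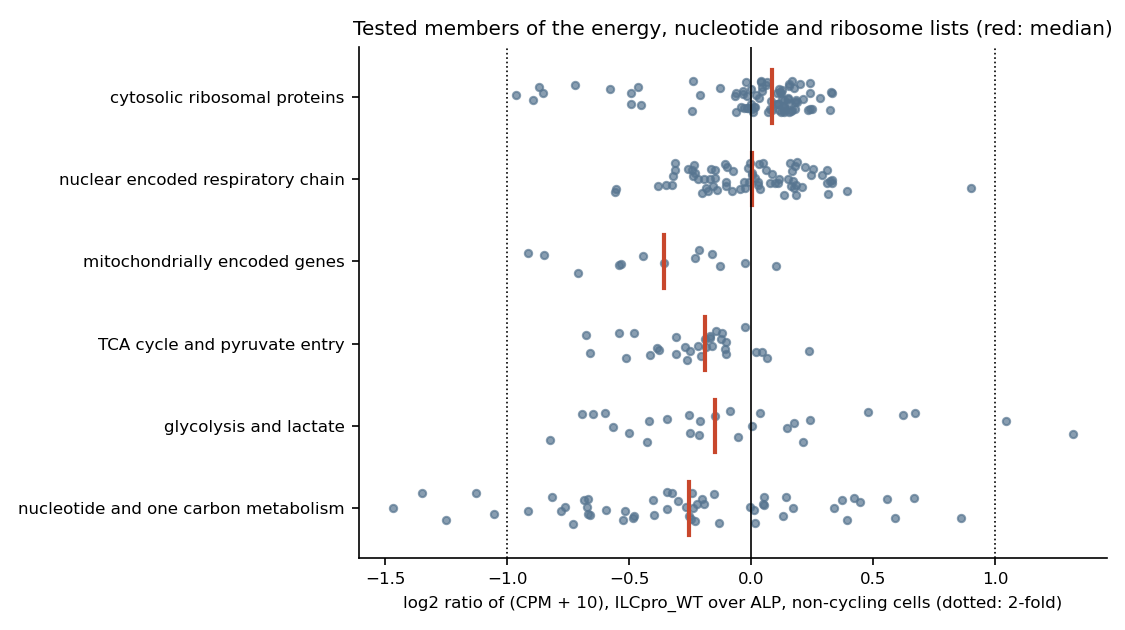
Log2 difference, ILCpro_WT minus ALP, of each tested gene of the ribosomal proteins, the nuclear and mitochondrial respiratory chain, the TCA cycle, glycolysis and nucleotide synthesis, with the median of each list in red. All ribosomal, respiratory and TCA points stay between -1 and 1; the nucleotide list has 5 points below -1 and glycolysis 2 above 1.

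Nucleotide and serine synthesis had 0 higher and 5 lower of 55 genes (median -0.26): Ada, Adssl1, Phgdh, Pnp and Prps2. Phgdh, the entry enzyme of serine synthesis, was at 281 CPM (250.3 to 314) in ALP and 112 CPM (101 to 124) in ILCpro_WT. Prps2, which makes the ribose precursor of nucleotides, was at 239.6 and 88.0 CPM. In dividing cells their log2 differences were -0.74 and -0.81, short of 2-fold. Kept cells still held other cell cycle transcripts: summed cycling markers were at 1781 CPM in ALP and 1074 CPM in ILCpro_WT, and 36 of 309 and 52 of 1223 cells had 2 or more UMIs of a wider set of S phase and mitosis genes. The part of these in the nucleotide and cell cycle lists was not tested, beyond a repeat without those cells, in which neither the metabolism counts nor those over all genes moved by more than 1.5 times. Lipid genes had 3 higher (Alox5, Fabp5, Ugcg) and 3 lower (Alox5ap, Gm2a, Pld4) of 57. Over all genes tested the shares were 2.7% and 3.95%. Ugcg, which makes glucosylceramide, was at 24.7 and 119 CPM, while Gm2a, which helps to break down gangliosides, was at 141 and 37.2 CPM. Among amino acid genes (1 higher and 2 lower of 33), Ass1, an arginine synthesis enzyme, was at 73.2 and 5.22 CPM. Prdx4, a peroxidase of the endoplasmic reticulum, was at 40.2 and 3.19 CPM, and Tfrc, the transferrin receptor, at 43.9 and 11.6 CPM. Cholesterol genes had 0 higher and 1 lower (Pmvk) of 32.

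Chromatin regulators were mostly within 2-fold. No member of the lists for nucleosome remodellers (47 tested), histone methylation (51) or DNA methylation (15) was past it, and Ezh2, the Polycomb methyltransferase, was at 109 and 102 CPM. The exception by abundance was H2afy (chr13:56073619-56136361), which encodes the histone variant macroH2A1. It was at 3781 CPM (3667 to 3898) in ALP cells, 1141 CPM (1106 to 1178) in ILCpro_WT cells and 1754 CPM in ILCpro_KO cells, 3.31-fold lower in ILCpro_WT (3.17 to 3.46). Satb1, a chromatin organiser of lymphoid cells, was at 314 and 97.5 CPM, and Lmnb1, a lamin of the nuclear envelope, at 152 and 47.6 CPM. Hdac9 had 18 UMIs in ALP and 0 in ILCpro_WT, at least 18.9-fold lower. The Polycomb genes L3mbtl3 and Rybp were the other lower members. Higher were Hmgn3, a nucleosome-binding protein (25.6 and 61.8 CPM), which in dividing cells lay on the other side of 0 (log2 difference -0.20), Ssbp3 (27.4 and 83.9 CPM), an adaptor of LIM-domain transcription complexes, and Zfp36l1. Its relative Zfp36l2 was lower, at 469 and 192 CPM.

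Ribosomal proteins stood as a block. None of 84 was past 2-fold and their median was 0.08, with a share of all UMIs of 36.5% in ALP and 39.0% in ILCpro_WT. A few lay well below the rest, among them Rpl15 (1607 and 875 CPM). Translation, proteasome, folding and splicing lists had 0 higher and 0 lower members. The nuclear long RNAs went up in level: Malat1 was at 13990.1 CPM in ALP, 31206 CPM in ILCpro_WT and 16629 CPM in ILCpro_KO, and Neat1 at 17.4, 89.7 and 84.0 CPM. Of 37 apoptosis genes, Bcl2 and Bik were higher and Phlda3 lower, and the Bcl2 relative Mcl1 was at 31.1 and 27.3 CPM. Immediate early genes, which respond to handling as well as to signals, had 0 higher and 4 lower of 18, with Fos at 48.5 and 7.26 CPM and Jun at 156 and 64.4 CPM. The growth regulator Myc was at 103 and 31.3 CPM. It was 1 of 5 lower members (with Mycl, Ccnd1, Mcm3 and Mcm5) of 38 genes for entry into the cell cycle, of which Mycn and Rbl2 were higher. Vesicle and lysosome genes had 3 higher (Ctsw, Rab19 and Rab44) and 2 lower (Ctsb and Laptm4a) of 49. The shares over all genes tested were 2.7% and 3.95%. The protease Ctsw of cytotoxic cells was at 15.5 and 102 CPM.

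Interferon-stimulated genes formed the list with the lowest median. Of 32 tested, 0 were higher and 11 lower, with a median log2 difference of -0.73 in non-cycling cells and -0.62 in cycling cells. Without the cells that held a Siglech UMI, the median was -0.74. Ifitm3, which blocks virus entry at the membrane, was at 264 CPM (235 to 297) in ALP cells, 10.4 CPM (7.32 to 14.5) in ILCpro_WT cells and 39.2 CPM in ILCpro_KO cells. Its neighbours on chromosome 7 were lower as well, Ifitm2 at 256 and 33.1 CPM and Ifitm1 at 89.6 and 12.2 CPM, yet Ifitm1 was at 138 CPM in ILCpro_KO. Ifi27l2a was at 189 and 13.6 CPM, Bst2, which tethers virus particles, at 238 and 90.6 CPM, and Ifi203 at 144 and 29.0 CPM. The other lower members were Irgm1, Mndal, Oasl2, Rtp4 and Xaf1. Zbp1 and Slfn2 lay above 0, at log2 differences of 0.94 and 0.86, without reaching 2-fold. Summed markers of plasmacytoid dendritic cells were lower in ILCpro_WT too, as given above, and Bst2 counts in both lists. The part of such cells in the levels of these genes was not tested, beyond the repeat without cells holding a Siglech UMI.

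**Figure D4:**
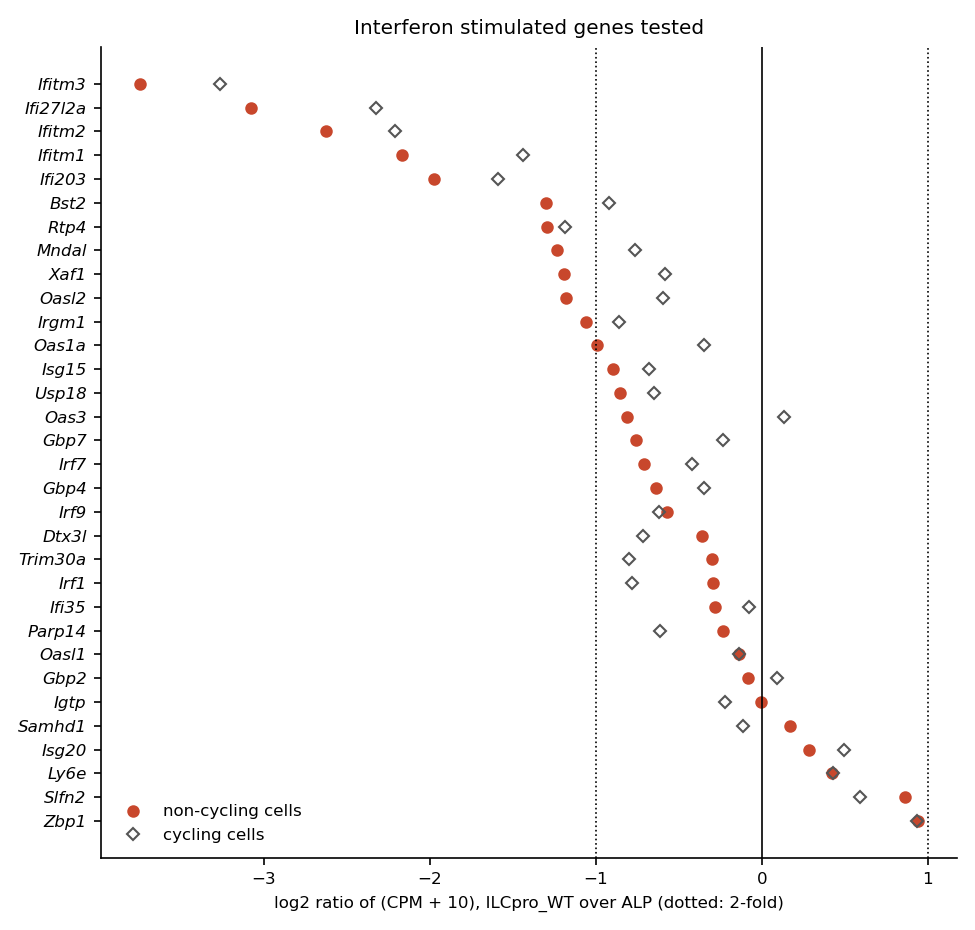
Log2 difference, ILCpro_WT minus ALP, of 32 interferon-stimulated genes in non-cycling cells (dots) and cycling cells (diamonds). Most genes lie below 0 in both kinds of cell, with Ifitm3 lowest (-3.75 and -3.27), and Zbp1 and Slfn2 highest among the dots.

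The promoters of the lower interferon-stimulated genes were searched for the core of the interferon response element (GAAA, any 2 bases, GAAA, on both strands) in windows from 250 bases before to 50 after the start. The element was in 3.99% of 27025 RefSeq promoters, in 3.78% of those of 7456 tested genes, in 7.49% of 187 higher genes and in 6.4% of 297 lower genes. It belonged to a set of 22 motifs searched in these windows. Shares above the tested genes in both higher and lower genes were not particular to it. The GATA motif AGATAA was in 13.9% of higher and 10.4% of lower genes, against 7.64% of tested genes. Other motifs lay below in both, such as the AHR motif GCGTG (43.3% and 51.5%, against 57.9%). The interferon element was in 6 of 9 lower interferon-stimulated genes with a promoter entry and in 7 of 16 that were not lower. A match describes letters in a window and is not a measured site. The windows of 5 lower genes are shown as examples of a match, 30 bases each on the minus strand of GRCm38.p6, with the element in capitals.
Ifitm2, chr7:140955988-140956017: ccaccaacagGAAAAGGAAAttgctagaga
Bst2, chr8:71537583-71537612: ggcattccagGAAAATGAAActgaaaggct
Irgm1, chr11:48871431-48871460: cctgtttcaaGAAATAGAAAccgaaactga
Ifi203, chr1:173942508-173942537: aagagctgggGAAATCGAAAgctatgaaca
Mndal, chr1:173880204-173880233: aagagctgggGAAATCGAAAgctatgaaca
The windows of Ifi203 and Mndal are identical. Whether the transcripts of these genes share reads was not tested, so their separate counts may be uncertain. The Mndal window lies before its RefSeq start, whereas another annotation (GENCODE) starts the gene elsewhere, at chr1:173942491. The element was not found in the windows of Ifitm1, Xaf1 and Oasl2.

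Within ILCpro_WT, the higher genes did not all follow the ILC lineage genes. Cells were placed in 3 ranges by the summed UMIs of Zbtb16, Rora, Gata3, Icos, Pdcd1 and Il18r1, with 216 cells at 0, 279 at 1 or 2 and 728 at 3 or more; the ranges are cuts of a score and not cell types, and 121 cells had exactly 2 and 85 exactly 3. Their median UMIs per cell were 2583, 2724 and 2439. Genes of 1 pattern were low at 0 and high at 3 or more: Cacna1e was at 1.72, 7.35 and 147 CPM, Itgb3 at 13.7, 19.6 and 183 CPM, Txk at 3.43, 26.9 and 161 CPM, and Socs1 at 13.7, 31.8 and 169 CPM. Ltb (39.5, 63.7 and 339 CPM) and Lpar6 (32.6, 30.6 and 161 CPM) followed this order, and at a score of 0 both were near their ALP levels of 39.3 and 24.7 CPM.

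Genes of another pattern were already far above ALP in cells with a score of 0. Bcl2 was at 1244, 1333 and 1663 CPM against 259 CPM in ALP, Gse1 at 122, 158 and 174 CPM against 11.9 CPM, and Tmsb4x at 4961, 5207 and 6584 CPM against 1484 CPM. Serpine2 (56.6, 89.4 and 58.7 CPM) and Grb2 (266, 377 and 244 CPM) showed no order along the score, and Nfkb1 was highest at 0 (391, 347 and 188 CPM). Among lower genes, H2afy went down in level across the ranges (2092, 1536 and 713 CPM), as did Ifitm2 (82.4, 44.1 and 14.7 CPM) and Il12a (68.6, 50.2 and 6.84 CPM). Il6st was at 6.86 CPM even at a score of 0, against 70.4 CPM in ALP. Cells at a score of 0 also carried more UMIs of neutrophil and monocyte markers (647, 229 and 53.3 CPM) and of mast cell and basophil markers (271, 209 and 81.1 CPM), and cycling markers summed to 1467, 1560.0 and 767 CPM. The part of these in the order was not tested.

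**Figure D5:**
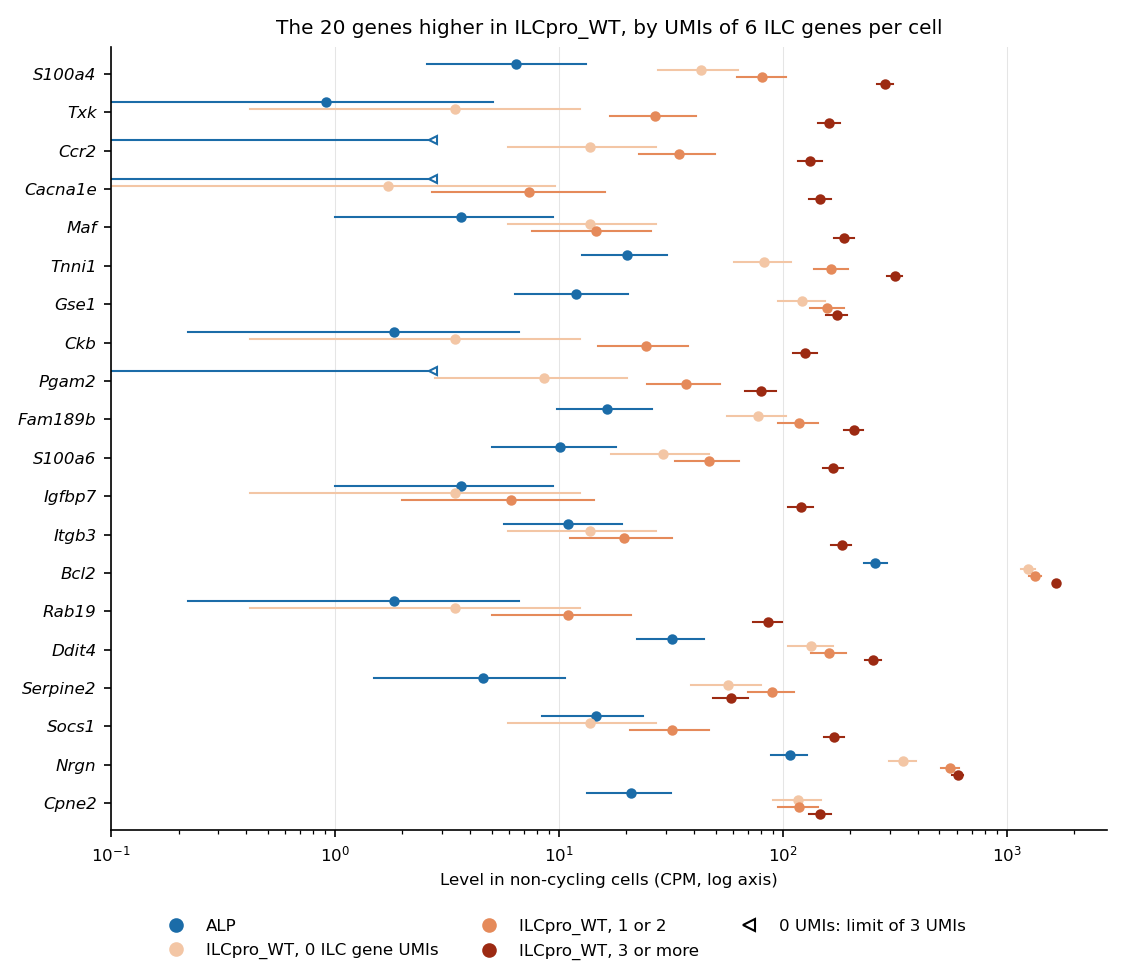
CPM on a log axis of the 20 highest genes in non-cycling ALP cells and in 3 ranges of the summed ILC lineage score within ILCpro_WT (0, 1 to 2, 3 or more UMIs). Cacna1e, Itgb3 and Txk climb along the ranges, while Bcl2, Gse1 and Serpine2 lie far above ALP already at a score of 0.

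Dividing cells gave a smaller contrast. Among the 437 ALP and 510 ILCpro_WT cells that failed only the division criterion, 1.47% of genes were higher and 2.23% lower (3.7% in all), against 2.7% and 3.95% in non-cycling cells. Of the 20 highest and 20 lowest genes, only S100a6 was short of 2-fold there. Txk was at 1.51 and 31.8 CPM in dividing cells, Bcl2 at 271 and 831 CPM, Egfl7 at 336 and 37.5 CPM, and H2afy at 3030.5 and 1387 CPM.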

How the data were processed

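Single-cell mRNA was captured with the 10x Chromium v2 assay and sequenced on a NextSeq, per the labels' protocols. Cell Ranger 2.0.1, STAR 2.5.1b and bcl2fastq 2.17 appear in the submitters' processing notes. The values used are raw UMI counts per gene and cell, as deposited by the authors. For each library the UMIs of kept cells were added up per gene and divided by their total (CPM), in Python 3.11.15 with numpy 2.4.6, scipy 1.17.1, pandas 2.3.3 and scanpy 1.11.5. Ratios carry exact conditional binomial intervals; a gene with 0 UMIs in a library was set to a floor of 3 UMIs for a bound ("at least"). ALP and ILCpro_WT shared 4 cell barcodes, 0 of them among the kept cells.

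The members and the gene lists were chosen with earlier results of these data known. Genes are named by rule: the 20 highest and 20 lowest at 50 CPM or more (leaving out ribosomal, mitochondrial, sex-linked and cell type marker genes and gene models), up to 8 members per list at 20 CPM or more plus its 2 most abundant, the sort and stage genes, and relatives of these. List members past 2-fold are named beside their list's count even where they fall outside that rule, and those were chosen after their values were seen. Doublets were kept; removal by Scrublet score was an alternative, and it took 0 ALP and 13 ILCpro_WT cells. On simulated counts for this comparison (9437 genes), 50 of 50 changed genes at 50 CPM were called and 2 of 9238 unchanged ones. Of all changed genes tested, 172 of 199 were called. The simulation held counting error only and set changes larger than 2-fold. It therefore checks the arithmetic and cannot show how much cells, animals or libraries vary. Alternatives changed the cells, the depth, the scaling, the pseudocount and the minimum level.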

Additional observations from a re-analysis of the deposited data

Results flagged for a closer look

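The library labelled ILCpro_KO, which enters no difference in the report, held signal for genes of other cell types among its non-cycling cells that was low in the same cells of the other libraries. A set of 4 genes stood above 50 CPM there and below 5 CPM in non-cycling cells of both ALP and ILCpro_WT, thresholds that were chosen after the data were seen. Elane, an elastase of neutrophil precursors, was at 161.502 CPM (139.8 to 186) in ILCpro_KO, with 1 UMI in ALP and 9 in ILCpro_WT. Over all kept cells, without the division and lineage criteria, Elane was at 69.7 CPM in ALP and 51.8 CPM in ILCpro_WT. Ms4a3, a gene of granulocyte and monocyte progenitors, was at 54.6497 CPM. Cd3d, a chain of the T cell receptor complex, was at 97.0643 CPM (80.4 to 116), and Gzma, a granzyme of killer cells, at 72.5943 CPM (58.3 to 89.3). Levels of ILCpro_KO printed beside the contrast come from cells that carry these UMIs, and their part in those levels was not tested.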

How the results depend on the processing

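No paired analysis was possible because each group was 1 library. Of 182 named genes past 2-fold, between 160 and 182 stayed past it in 12 of the 14 alternatives; the others were all cells (134) and cycling cells (111). A changed minimum level leaves a gene's ratio as it is, and a smaller pseudocount can only widen it. All 182 therefore stayed in those alternatives by construction. Hmgn3 alone changed side, at -0.20 in cycling cells. Over all genes, 262 were higher and 383 lower. Cycling cells gave 139 and 211, a pseudocount of 1 CPM gave 669 and 1018, and thinning to 1000 UMIs per cell gave 432 higher. Signalling members (43 higher, 49 lower) numbered 22 and 28 in cycling cells and 71 and 96 with a pseudocount of 1 CPM, with 32 lower in all cells. Adhesion members (14 and 27) numbered 9 and 16 in cycling cells, with 22 higher at a pseudocount of 1 CPM. Metabolism members (8 and 14) numbered 2 and 5 in cycling cells, 3 and 8 in all cells, and 18 and 36 with a pseudocount of 1 CPM, with 5 higher in cells of at least 1000 genes and 25 lower after thinning. Chromatin members (3 and 7) numbered 1 and 3 in cycling cells, 7 and 18 with a pseudocount of 1 CPM, and 5 and 14 after thinning, with 1 higher in cells of at least 1000 genes. A smaller pseudocount lets low genes pass by construction, and thinning leaves fewer UMIs; the cause of the other shifts was not tested. Repeating the contrast without cells holding a Siglech UMI, added after seeing the data, moved none of these counts by more than 1.5 times. With 309 ALP cells, a gene at 0 UMIs there could still stand at up to 2.74 CPM, the level of 3 UMIs.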

Other observations

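Imprinted genes and long noncoding RNAs, as a list, had 6 higher and 0 lower members of 13 (median log2 difference 0.35): Cdkn1c, H19, Igf2, Malat1, Mir142hg and Neat1. For 3 of these, which were looked at because of their values, the UMIs came from few cells. Igf2, a growth factor of fetal tissue, had 0 UMIs in ALP and 44 in ILCpro_WT, which came from 9 of 1223 cells, with 15 of them (34.1%) in 1 cell, and it had 0 UMIs in dividing cells of both libraries. H19, the noncoding RNA of the same locus, had 40 UMIs in 19 cells, and Cdkn1c, a brake on the cell cycle, 94 UMIs in 46 cells. Such concentration was rare: a single cell held more than 25% of the UMIs for 2 of 262 higher genes (Igf2 and the basophil protease Mcpt8) and for 3 of 383 lower genes (Hba-a1, Hba-a2 and Ly6d). The median share in the fullest cell was 2.31% over the higher genes and 4.48% over the lower genes.

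A pair of list members left out of the ranking as cell type markers differed by more than 10-fold. Fgf3, a fibroblast growth factor, had 0 UMIs in ALP and stood at 163 CPM (149.9 to 177) in ILCpro_WT, at least 59.5-fold higher, and at 4.89 CPM in ILCpro_KO. Arg1, an arginase found in type 2 ILCs, had 0 UMIs in ALP, 45.3 CPM in ILCpro_WT (at least 16.5-fold higher) and 0.816 CPM in ILCpro_KO. Along the ILC lineage score they differed: Fgf3 was at 51.5, 135 and 206 CPM at scores of 0, 1 to 2 and 3 or more, and Arg1 at 0, 7.35 and 73.3 CPM.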
